A study of Mus musculus with 4 samples.

Results

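Polyamine metabolism genes code for the enzymes that make, interconvert and break down putrescine, spermidine and spermine, and for the proteins that set how much of the first enzyme is kept. The list held 10 genes, and they were chosen by measured values: Smox, the spermine oxidase gene, had been seen to be high with palmitic and oleic acid on these same arrays. Of the 10 genes, 6 (Smox, Odc1, Azin1, Oaz2, Srm and Sat1) had a probe listed with exactly 1 gene, among 19938 genes measured this way. Odc1 had 2 such probes, and each of the others had 1. All 6 passed the filter on low values, which kept 11174 genes whose highest value over the arrays reached log2 7.09, the median over all probes and arrays. Oaz1 and Sms had only probes shared with a pseudogene or gene model, and Amd1 and Paox had no listed probe and were not analysed here.

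The cells were peritoneal macrophages of wild-type C57BL/6 mice aged 8 to 12 weeks, collected 3 days after an injection of thioglycolic acid had drawn them into the cavity, and selected by adherence to the plate after lysis of red cells. They were kept for 6 h with 500 µM palmitic acid (C16:0), oleic acid (C18:1) or linoleic acid (C18:2), where the label gives carbons and then double bonds, each bound to bovine serum albumin (BSA), or as a control. The control is labelled as BSA only, while the treatment protocol describes a vehicle of ethanol and KOH. RNA of 3 samples per group was pooled on 1 array, so the series has 4 arrays and no replicates, and the labels do not say whether the pooled samples came from separate mice. No spread between samples, test, interval or p-value can therefore be had for any difference below, and the order of neighbouring levels cannot be judged against error.

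Polyamines are small positively charged molecules that bind nucleic acids and are needed for growth and translation. Ornithine decarboxylase (Odc1) makes putrescine from ornithine, and spermidine synthase (Srm) and spermine synthase (Sms) add aminopropyl groups that S-adenosylmethionine decarboxylase (Amd1) provides. Antizymes (Oaz1, Oaz2) bind ornithine decarboxylase and send it to the proteasome, and antizyme inhibitor (Azin1), a relative of the decarboxylase without its activity, holds antizyme away from it. On the way back, Smox oxidises spermine to spermidine and releases hydrogen peroxide, Sat1 acetylates spermidine and spermine, and Paox oxidises the acetylated forms. Antizyme, ornithine decarboxylase and Sat1 are also known to be set by translation and protein turnover, which arrays of RNA do not measure.

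The arrays showed a macrophage profile: all 10 macrophage markers measured, among them Adgre1, Cd68 and Csf1r, were at or above log2 7.09. That value alone says little, since 11174 of all 19938 genes reached it, but the markers' median in the control was 12.44. Fcgr1, also a macrophage marker, differed from the control by -0.66 with palmitic and 0.65 with oleic acid. Of the markers of other cells, 1 of 4 B cell, 1 of 4 T cell, 0 of 5 neutrophil, 1 of 4 eosinophil and 0 of 5 mast cell genes reached log2 7.09 on any array, and 8 of 10 mesothelial and fibroblast genes did. The 10 mesothelial and fibroblast genes were all lower in the palmitic acid array than in the control, with a median log2 difference of -0.23. Of these, 2 were beyond 1.5-fold, beside 3.57% of all kept genes either way. With oleic acid 6 of the 10 were lower, with a median of -0.01. Beyond 1.5-fold was 1 of them, Pdgfrb at -0.71, beside 0.716% of all kept genes. Their summed linear intensity was 4236 with palmitic acid, 5158 with oleic acid, 6005 with linoleic acid and 5639 in the control. None was at 0, since these values have no zero. The part of such shifts in the palmitic and oleic acid differences below was not tested, and in bulk RNA fewer cells of a type and less RNA per cell cannot be told apart.

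Smox stood out among the polyamine genes in the oleic acid array. Its log2 intensity, read from 1 probe with no second probe to compare, was 10.20 with palmitic acid, 10.82 with oleic acid, 9.75 with linoleic acid and 9.58 in the control. The oleic acid array was the highest, the palmitic acid array came next, and linoleic acid was nearest to the control. The difference from the control was 1.25 in log2 for oleic acid, which is 2.37-fold, 0.62 for palmitic acid, which is 1.54-fold, and 0.17 for linoleic acid. Of the 11174 kept genes, 4, Smox included, were at least as far above the control with oleic acid, against 203 for palmitic and 1389 for linoleic acid. These values chose the list, so they are a description.

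Smox also differed between the fatty acid arrays. The direct difference was -0.62 for palmitic minus oleic acid, -1.07 for linoleic minus oleic acid and 0.45 for palmitic minus linoleic acid. The last of these was less than 1.5-fold. Between linoleic and oleic acid, which share their chain length and differ by 1 double bond, Smox was thus at 0.48 of its oleic acid level. Of the 11174 kept genes, 7 were at least as far down there, and 145 for palmitic minus oleic acid. For palmitic minus linoleic acid 328 were at least as far up. These differences use the same high oleic and palmitic acid values that chose the list, so they too are a description. The palmitic acid value lay close to the 1.5-fold line (log2 0.585), and after a repeated quantile normalisation it was 0.55 and no longer beyond it.

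**Figure D1:**
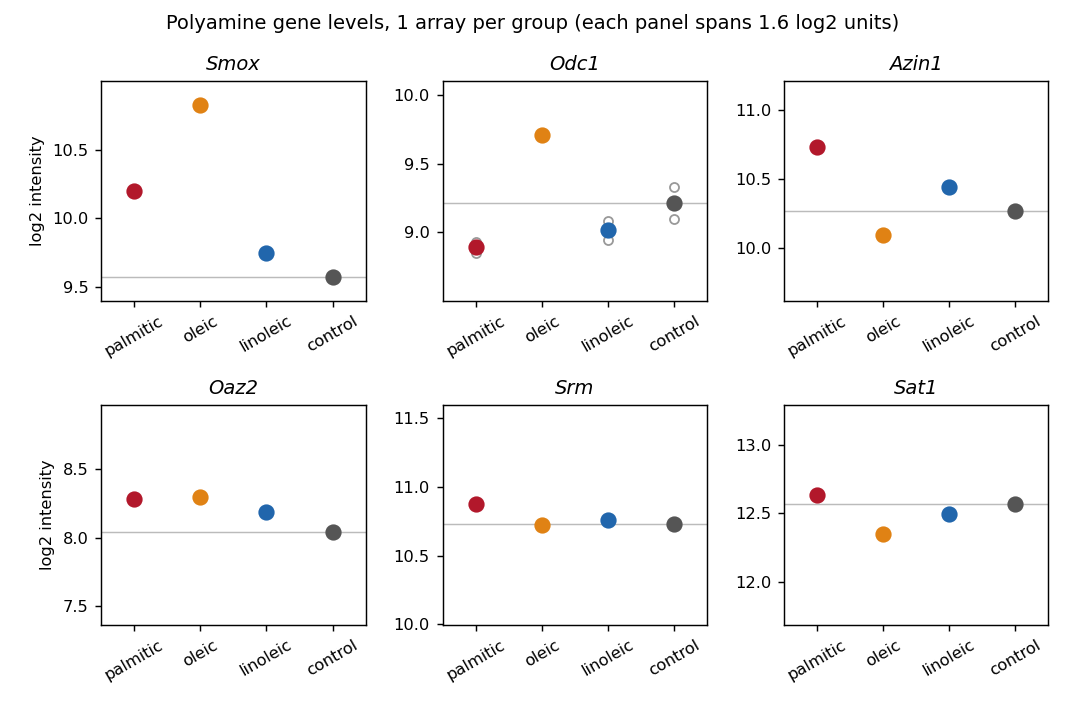
Log2 intensity (y axis) of the 6 measured polyamine genes in the palmitic, oleic, linoleic acid and control arrays (x axis, 1 array each), with a grey line at the control and open circles for the separate probes of Odc1. Smox was highest with oleic acid at 10.82 and lowest in the control at 9.58, Odc1 was highest with oleic acid and lowest with palmitic acid, and Azin1 was the other way round.

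The 2 members with the largest range over the 4 arrays, Smox and Odc1, both had their highest value with oleic acid, and the sequence before each gene is shown for that reason. The bases are from RefSeq (GRCm38.p6, plus strand, 5′ to 3′) and end at the base before the gene's first annotated base, 246 bases for Smox and 185 for Odc1. Capitals mark letters that match 1 of 4 motifs.
Smox, chr2:131491612-131491857: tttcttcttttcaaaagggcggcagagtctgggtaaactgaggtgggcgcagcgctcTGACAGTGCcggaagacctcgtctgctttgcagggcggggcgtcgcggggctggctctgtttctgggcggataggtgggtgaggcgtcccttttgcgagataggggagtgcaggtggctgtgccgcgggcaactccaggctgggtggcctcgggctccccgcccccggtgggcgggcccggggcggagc
Odc1, chr12:17544623-17544807: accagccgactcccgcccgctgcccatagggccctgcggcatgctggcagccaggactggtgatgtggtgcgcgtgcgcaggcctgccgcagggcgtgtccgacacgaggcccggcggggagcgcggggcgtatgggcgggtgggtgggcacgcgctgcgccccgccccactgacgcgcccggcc

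The motifs were searched on both strands in windows of 300 bases (250 before and 50 after a start), which RefSeq gave for 8 of the 10 listed genes: Smox, Odc1, Oaz1, Oaz2, Amd1, Sms, Sat1 and Paox. The letters TGACNNNGC, the core of the antioxidant element bound by NRF2, were in the Smox window, as the TGACAGTGC printed in capitals above, and in the Oaz1 window, and in 12.4% of all 32851 windows. The E-box CACGTG, bound by MYC and MAX, was in 1 of the 2 Sms windows and in 7.15% of all windows. TGATGNAA, a core of elements bound by ATF4 and its partners, was in no member's window and in 3.97% of all, and a direct repeat of AGGTCA with 1 base between the copies, bound by PPAR and RXR, was in no member's window and in 0.0396% of all. No motif overlapped another. A match is a match of letters and does not show binding.

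Odc1, the gene of the enzyme that starts polyamine synthesis, differed in opposite directions with palmitic and oleic acid. Its log2 intensity, the mean of 2 probes, was 8.89 with palmitic acid, 9.71 with oleic acid, 9.01 with linoleic acid and 9.21 in the control. The oleic acid array was above the control by 0.50 (1.41-fold), while the palmitic and linoleic acid arrays had differences of -0.32 and -0.20. Of the kept genes, 64 were at least as far up with oleic acid and 620 at least as far down with palmitic acid.

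The 2 Odc1 probes had the same direction in each of these comparisons. With oleic acid minus control they gave 0.39 and 0.60, with palmitic acid minus control -0.40 and -0.25, and with linoleic acid minus control -0.25 and -0.16. The probes thus disagreed on whether Odc1 was beyond 1.5-fold with oleic acid. Directly compared, Odc1 had a difference of -0.82 for palmitic minus oleic acid (0.57 of the oleic acid level) and -0.70 for linoleic minus oleic acid, and both probes were beyond 1.5-fold in both. These 2 comparisons and oleic acid minus control all use the same oleic acid array. They are not separate support for a high Odc1 there, and the 2 probes were read on the same arrays.

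Azin1, which codes for the antizyme inhibitor that spares ornithine decarboxylase, had the reverse order of arrays for palmitic and oleic acid. Its log2 intensity was 10.73 with palmitic acid, 10.09 with oleic acid, 10.44 with linoleic acid and 10.27 in the control. It was above the control by 0.46 (1.38-fold) with palmitic acid and by 0.18 with linoleic acid, and its difference with oleic acid was -0.17. The direct difference was 0.64 for palmitic minus oleic acid, which is 1.56-fold, and 0.35 for linoleic minus oleic acid, and both use the same oleic acid array. After a repeated quantile normalisation the palmitic minus oleic acid difference was 0.5855, barely past the 1.5-fold line (log2 0.585). On the palmitic acid array Odc1 was thus at its lowest and Azin1 at its highest, and on the oleic acid array Odc1 was at its highest and Azin1 at its lowest.

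Oaz2, an antizyme gene, was higher in all 3 fatty acid arrays than in the control, by less than 1.5-fold. Its log2 intensity was 8.28 with palmitic acid, 8.30 with oleic acid, 8.19 with linoleic acid and 8.04 in the control. All 3 differences (0.24, 0.26 and 0.15) subtract the same control array, and the differences between fatty acids were between -0.11 and 0.10. Of the kept genes, 40.3% had at least the same range over the 4 arrays, while 4.34% were at least as far above the control with oleic acid. The 2 probes listed with both Oaz1 and its pseudogene Oaz1-ps, which cannot be assigned to either, both read -0.23 for palmitic and -0.13 for linoleic acid minus the control, and at their control values, 11.83 and 11.99, with oleic acid.

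Srm differed little between arrays, and Sat1 differed by less than 1.5-fold in every comparison. Srm, the spermidine synthase gene, was at log2 10.88 with palmitic acid, 10.72 with oleic acid, 10.76 with linoleic acid and 10.73 in the control, a range of 0.16 that 71.4% of kept genes reached or passed. Sat1, the acetyltransferase gene, was at 12.63 with palmitic acid, 12.35 with oleic acid, 12.49 with linoleic acid and 12.57 in the control. Its largest difference was 0.28, for palmitic minus oleic acid, which 21.5% of kept genes reached either way. With oleic acid minus control Sat1 was at -0.22, and 4.13% of kept genes were at least as far down. The 2 probes listed with both Sms and the gene model Gm8234, which cannot be assigned to either, read 0.42 and 0.47 above the control with palmitic acid, -0.10 and -0.08 with oleic acid and -0.13 and -0.06 with linoleic acid.

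**Figure D2:**
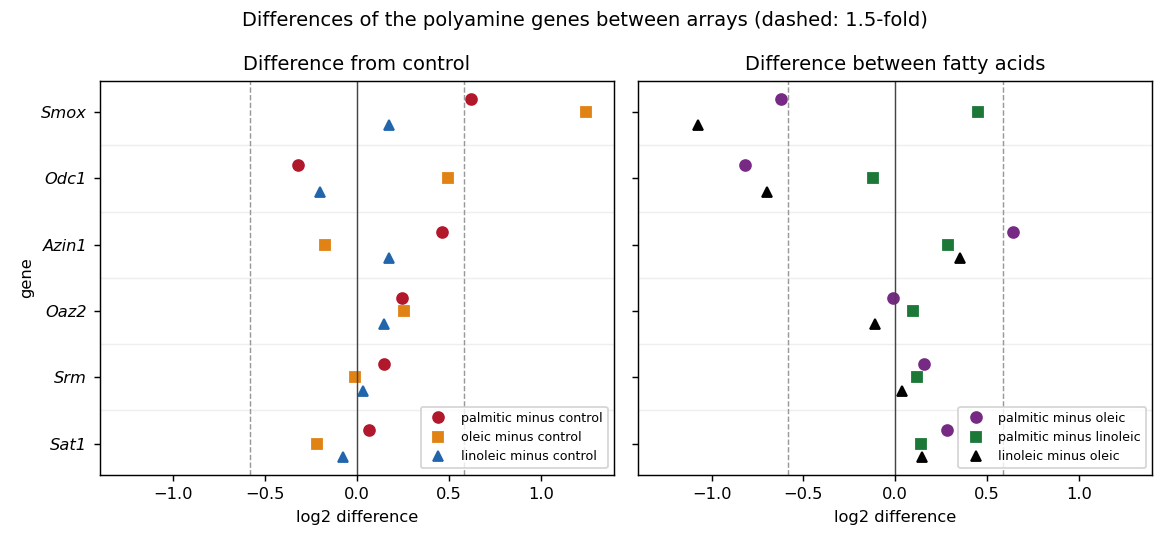
Log2 differences (x axis) of the 6 measured genes (y axis), from the control on the left and between fatty acids on the right, with dashed lines at 1.5-fold. Smox alone passed the line against the control, while Smox, Odc1 and Azin1 passed it for palmitic minus oleic acid.

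Counted against the control, 1 of 6 genes (Smox) was at least 1.5-fold different with palmitic acid, beside 3.57% of all kept genes either way. With oleic acid it was again Smox, 1 of 6, beside 0.716%. With linoleic acid 0 of 6 were, beside 0.0716%. The median log2 difference of the 6 genes was 0.20 for palmitic, 0.12 for oleic and 0.09 for linoleic acid, and the largest of the same medians over all kept genes was 0.04. The 3 comparisons share the control array, and the list was chosen on Smox in the palmitic and oleic acid comparisons, so that nothing is read from those counts.

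Between fatty acids, 3 of 6 genes were at least 1.5-fold different for palmitic minus oleic acid, Smox and Odc1 lower and Azin1 higher, beside 3.47% of all kept genes. For linoleic minus oleic acid 2 of 6 were, Smox and Odc1, both lower, beside 1.05%. For palmitic minus linoleic acid 0 of 6 were, beside 3.60%. Smox enters these counts through the same high oleic and palmitic acid values that chose the list, and nothing is read from its share in them. The first 2 counts share the oleic acid array, so that Odc1 in both is not repeated support. The list medians were 0.07, -0.04 and 0.13 for palmitic minus oleic, linoleic minus oleic and palmitic minus linoleic acid, beside -0.02, 0.02 and -0.03 over all kept genes, and 5 of 6 members were above 0 in the last. No array is common to palmitic minus linoleic acid on one side and oleic acid minus control on the other, and in them Odc1 was at -0.12 and 0.50 and Azin1 at 0.29 and -0.17. Smox was at 0.45 and 1.25, which are among the values it was chosen for and lend no support to each other.

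**Figure D3:**
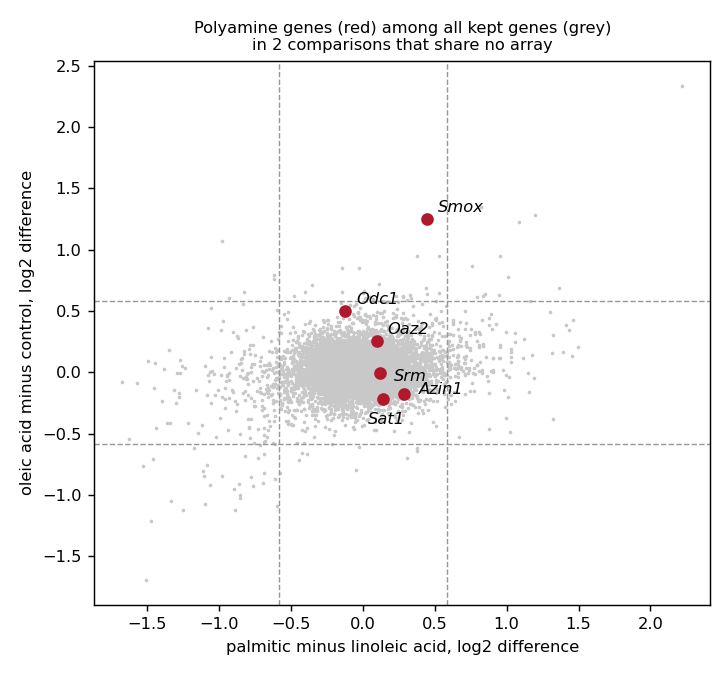
Log2 difference of oleic acid minus control (y axis) against palmitic minus linoleic acid (x axis), which share no array, for 11174 kept genes (grey) and the 6 polyamine genes (red), with dashed lines at 1.5-fold. Smox lies at 0.45 and 1.25, a place fixed by its choice for high palmitic and oleic acid values, with Odc1 just under the upper line at 0.50. The other members lie inside the dashed lines.

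The genes whose profile over the 4 arrays was most like that of Smox were taken by the Euclidean distance between log2 values centred on each gene's own mean, over 10596 kept genes other than gene models and small RNAs. They were Angptl4 (distance 0.22), which codes for an inhibitor of lipoprotein lipase, Ccr1 (0.23), a chemokine receptor gene, Cpt1a (0.28), the carnitine palmitoyltransferase gene of mitochondrial fatty acid uptake, Klf11 (0.42), a transcription factor gene, and Cd300a (0.42), a lipid-binding inhibitory receptor gene. All 5 had their highest value with oleic acid and their next highest with palmitic acid, which follows from their choice by likeness to Smox. The difference for palmitic minus oleic acid was -0.62 for Smox, -0.55 for Angptl4, -0.50 for Ccr1, -0.42 for Cpt1a, -0.22 for Klf11 and -0.15 for Cd300a. Unlike Ccr1 and Cd300a, whose linoleic acid values were below the control at -0.08 and -0.15, Smox was 0.17 above it with linoleic acid.

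**Figure D4:**
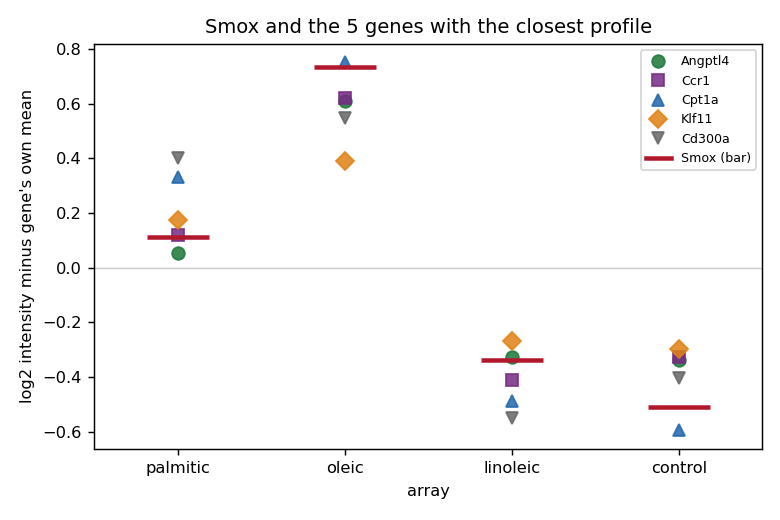
Log2 intensity minus the gene's own mean over the 4 arrays (y axis) in the palmitic, oleic, linoleic acid and control arrays (x axis) for Smox (red bars) and the 5 genes closest to it. The 5 genes were picked for this likeness, so their shared order of arrays is no finding, and Cd300a has the highest palmitic acid point.

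Around the pathway, 31 further genes were listed, of which 27 had a probe of exactly 1 gene and 24 were kept. Against the control, 0 of 24 were at least 1.5-fold different with any of the 3 fatty acids. The shares of all kept genes were 3.57% for palmitic, 0.716% for oleic and 0.0716% for linoleic acid. The median differences of the 24 genes were 0.05 for palmitic, 0.03 for oleic and 0.04 for linoleic acid. Between fatty acids 2 were beyond 1.5-fold in 1 comparison each, Atp13a3 and Nos2, the second of which is named after its values were seen. Atp13a3 was 1 of 24 for palmitic minus oleic acid, beside 3.47% of all kept genes. Nos2 was 1 of 24 for palmitic minus linoleic acid, beside 3.60%. Both counts are near those shares, and nothing is read from them.

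Among the 8 genes of ornithine and arginine supply, Arg2, the mitochondrial arginase gene that yields ornithine, was at 10.15 with palmitic acid, 10.27 with oleic acid, 9.75 with linoleic acid and 9.87 in the control. Like Smox, it was highest with oleic acid and next with palmitic acid, with differences from the control of 0.40 and 0.28. Unlike Smox, which was 0.17 above the control with linoleic acid, it was at -0.12 there. Oaz2 and Mri1, another gene around the pathway, were also highest with oleic acid and next with palmitic acid. The share of all kept genes with that order was not counted. Arg1, the cytosolic arginase gene and a marker of alternative activation, was near the floor of the filter and lay at -0.15, 0.10 and -0.17 with palmitic, oleic and linoleic acid. Nos2, which codes for the nitric oxide synthase that competes for arginine, was at 10.55 with palmitic acid, 10.91 with oleic acid, 11.20 with linoleic acid and 10.84 in the control, with a difference of -0.65 for palmitic minus linoleic acid. The 2 probes listed with both Ass1 and Gm5424, not assignable to either, were above the control with each fatty acid. They differed from it by 0.76 and 0.77 with palmitic acid, 0.37 and 0.40 with oleic acid and 0.19 and 0.21 with linoleic acid. All of these differences subtract the same control array.

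In the handling of S-adenosylmethionine and its by-product methylthioadenosine, 6 genes were kept. Adi1, an enzyme gene of the methionine salvage pathway, was at 8.94 with palmitic acid, 8.45 with oleic acid, 8.38 with linoleic acid and 8.50 in the control, so that the palmitic acid array alone was above the control, by 0.44. Mtap, whose enzyme clears methylthioadenosine, lay at -0.15, 0.04 and -0.15 with palmitic, oleic and linoleic acid, and Mat2a was not analysed here. Eif5a, the translation factor that carries the spermidine-derived residue hypusine, differed by -0.01, -0.03 and -0.02. The other hypusine genes, Eif5a2 and the enzyme genes Dhps and Dohh, were all less than 1.3-fold from the control. Eif5a2 lay at 0.13, 0.16 and 0.13 with palmitic, oleic and linoleic acid. In the same order Dhps lay at 0.23, -0.08 and 0.07, and Dohh at 0.22, -0.06 and -0.09.

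Among 5 transport genes, Atp13a3, a polyamine transport ATPase gene, was at 9.90 with palmitic acid, 9.29 with oleic acid, 9.52 with linoleic acid and 9.48 in the control. This order of arrays was that of Azin1, and also of Srm and Dhps, so it is not particular to Azin1 and Atp13a3. The share of all kept genes with this order was not counted. Atp13a3 was 0.42 above the control for palmitic acid, at -0.19 for oleic acid and at 0.61 for palmitic minus oleic acid. Its 2 probes gave 0.42 and 0.41 with palmitic acid but -0.34 and -0.05 with oleic acid, so that the size of the oleic acid difference depends on the probe. Slc3a2, the heavy chain of amino acid exchangers that has also been linked to polyamine export, was above the control by 0.29 with palmitic acid and by 0.05 or less with the other fatty acids. Slc18b1, near the floor of the filter, went the other way, at -0.33 with palmitic, 0.19 with oleic and 0.09 with linoleic acid. Atp13a2 and Gpc1 were both at 0.04 with palmitic acid. Oaz3, Sat2 and Satl1, homologues of the listed genes, did not reach log2 7.09 on any array, and Azin2 lay between -0.05 and 0.11 of the control.

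**Figure D5:**
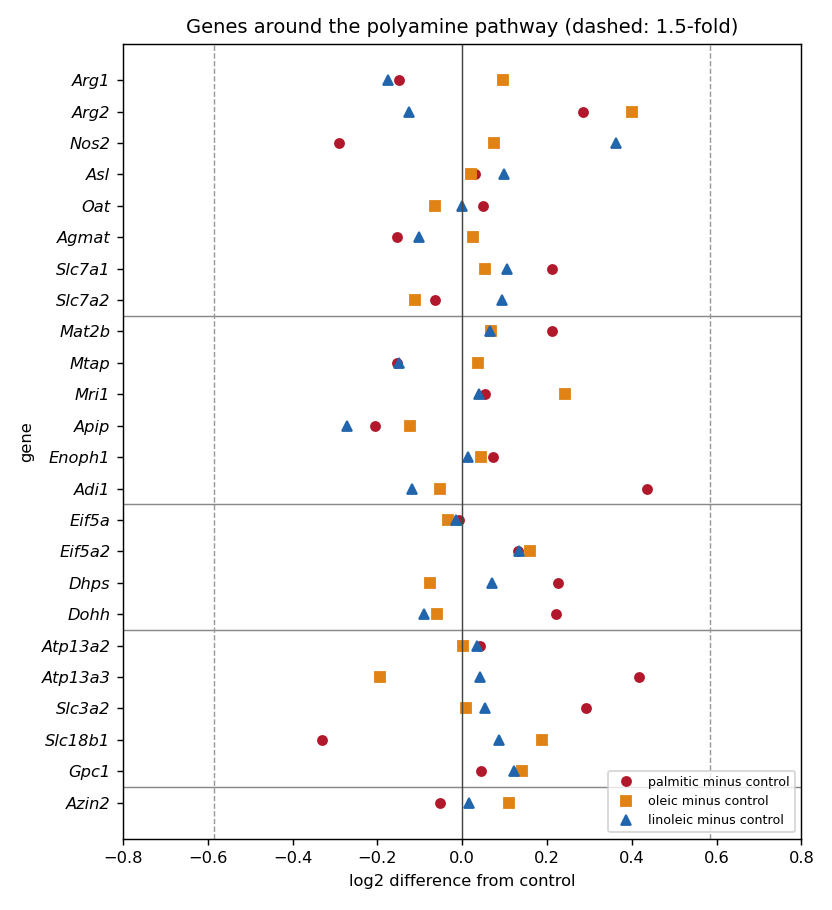
Log2 difference from the control (x axis) with palmitic, oleic and linoleic acid for the 24 kept genes around the pathway (y axis), grouped by lines into arginine and ornithine supply, methionine handling, hypusine, transport and 1 homologue. All points lie within the dashed lines at 1.5-fold, with Adi1, Atp13a3 and Arg2 the farthest to the right.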

How the data were processed

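The log2 intensities were deposited by the authors and had been made with RMA, per the submitters' processing notes, a method that corrects background, normalises arrays by quantiles and summarises probes. Neither the RMA version nor a genome build is named in the labels, and the scale was inferred from how far the values run. The 4 arrays had 35556 probes. The platform annotation gave exactly 1 gene for 21789 of them, several for 1621 and none for 12146. By Entrez ID 21698 of the former were in a RefSeq table (GRCm38.p6), and 0 symbols needed an update.

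Probes of exactly 1 gene were averaged per gene. For each of 6 pairs of arrays a log2 difference was computed per gene, and those at least 1.5-fold apart were counted as a description. Array number, and not depth, limits the precision. The counting was tested on simulated data. The members and lists were chosen with earlier results of these data known. All members are named, with Arg1, Arg2, Mtap, Eif5a, Slc3a2, Mat2a, the genes around the pathway at least 1.3-fold from the control, and the 5 genes most like Smox. Of the genes around the pathway, Nos2, Ass1, Mri1, Eif5a2, Dhps, Dohh, Slc18b1, Atp13a2, Gpc1, Azin2, Oaz3, Sat2 and Satl1 were named outside this rule. The 8 alternatives were 2 scalings, 2 probe rules, a floor and 3 filters. A planned comparison of the members' proteins was not run. Python 3.11.15, numpy 2.4.6, pandas 2.3.3 and matplotlib 3.10.9 were used.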

Additional observations from a re-analysis of the deposited data

How the results depend on the processing

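Of 48 counts of polyamine genes beyond 1.5-fold under the 8 alternatives, 47 equalled or stayed within 1.5 times the reported count. The exception was palmitic acid minus control after a repeated quantile normalisation, with 0 genes in place of 1, because Smox moved to 0.55. Most of these counts could not move: the floor, the 3 filters and the use of probes of several genes leave the values of Smox, Odc1 and Azin1 as they are, and the brightest probe alters Odc1 alone, so that only the 2 scalings bear on all members. Under both scalings Smox, Odc1 and Azin1 were the genes beyond 1.5-fold for palmitic minus oleic acid. After the repeated quantile normalisation Azin1 was at 0.5855 there, barely past the line at log2 0.585, so its call is borderline. Over 180 recomputed differences of single members, none of those beyond 1.5-fold changed sign, the largest shift was 0.107 (Odc1, oleic acid minus control, 0.39 by its brighter probe), and 3 small differences, all of Srm, changed sign with each array centred on its median. Over all kept genes, the linoleic acid count of 8 became 29 without a filter and 4 with the stricter filter at the 75th percentile, since other numbers of genes are counted, and the other counts stayed within 1.5 times. The share of higher genes among those beyond 1.5-fold moved by over 10 points with the repeated quantile normalisation only for linoleic acid minus control (18.2% beside 50%) and linoleic minus oleic acid (50.4% beside 67.5%). Centring the arrays gave 22.2% and 52.2% for the same 2 comparisons. No paired analysis was possible because each group has 1 array. With 1 array per group, neither biological nor technical error of any value is known.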
